A study of Mus musculus with 4 samples.

Results

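6 genes of zinc handling were examined among the 22913 genes listed in each library: the metallothionein genes Mt1, Mt2, Mt3 and Mt4, the zinc exporter gene Slc30a1 and the zinc importer gene Slc39a14. They were taken by name, and each was found once in the files with a value above 0 in every library. Mt2 was chosen by its FPKM, which was lower in OAD, the anagen library of old mice, than in YAD, that of young mice. The comparison of ages in anagen therefore took part in the choice, and its values are given below as a description.

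RNA sequencing was done on dermal white adipose tissue (dWAT), the fat layer around the lower ends of hair follicles (HFs), of C57BL/6 mice, with 1 library of tissue pooled from several mice for each of 4 groups. OTD was dWAT of old mice (18 months) in telogen, the resting phase of the HF cycle, and YTD was dWAT of young mice (2 months) in telogen. OAD and YAD were dWAT of old (18 months) and young (2 months) mice in anagen, the growth phase, which had been induced by depilation, a treatment that the telogen groups did not have. The age tag in the sample labels reads 18 months for YTD and 2 months for OAD, against the titles and the protocol, whose ages were used. With 1 library per group there was no spread between replicates, so every difference below is one between single libraries and has no p-value. Phase and depilation cannot be told apart. Each library enters 1 comparison of ages and 1 of phases, so these comparisons are not independent.

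Values are FPKM, the fragments of a gene divided by the length of its transcript and by the size of the library. A change is the first minus the second value of log2(FPKM + 1), a scale on which changes of low genes come out too small. Changes of at least 1 in size were counted. From the lowest values, the depth was roughly 16700000 fragments in YTD to 22300000 in YAD. The intervals given below are 95% intervals from the approximate fragments of a gene. Those of an FPKM value are Poisson intervals, and those of a log2 ratio are exact binomial intervals scaled by depth. Both kinds cover counting error only. All 10 adipocyte markers were above 0 in each library, with summed FPKM from 1253 in YAD to 4514 in OTD. The 10 skeletal muscle markers were above 0 in each library as well, and summed to between 9824 FPKM in YAD and 86378 in YTD. Mitochondrially encoded genes held 14.4% to 52.7% of all FPKM, lowest in YAD and highest in OTD, which makes the scaling between libraries a choice. In such bulk tissue, fewer cells of a type and less RNA per cell cannot be told apart.

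Metallothioneins are small proteins rich in cysteine that bind zinc and copper in the cell. Mt1 and Mt2 are used in most tissues, and zinc raises them through the transcription factor MTF1, which binds metal response elements in their promoters. Glucocorticoids and inflammatory cytokines raise them as well. Mt3 is best known from the brain and Mt4 from stratified epithelia. The product of Slc30a1 moves zinc out of the cell and its gene is another target of MTF1, whereas that of Slc39a14 brings zinc, iron and manganese into the cell and is known to respond to interleukin 6.

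The coding sequences of the 4 metallothionein genes (GENCODE vM21, GRCm38) are shown because they hold the feature that defines the family and let the relatedness of its members be read. Codons TGC and TGT, which encode cysteine, are in capitals.
Mt1: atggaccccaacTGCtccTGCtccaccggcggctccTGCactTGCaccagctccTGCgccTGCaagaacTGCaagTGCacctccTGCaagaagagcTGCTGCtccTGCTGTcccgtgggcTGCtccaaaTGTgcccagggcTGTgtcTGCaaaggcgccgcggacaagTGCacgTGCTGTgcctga
Mt2: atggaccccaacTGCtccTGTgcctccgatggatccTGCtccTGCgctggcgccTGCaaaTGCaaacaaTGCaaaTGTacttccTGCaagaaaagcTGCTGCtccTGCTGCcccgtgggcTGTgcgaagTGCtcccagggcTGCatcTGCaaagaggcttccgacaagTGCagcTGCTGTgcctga
Mt3: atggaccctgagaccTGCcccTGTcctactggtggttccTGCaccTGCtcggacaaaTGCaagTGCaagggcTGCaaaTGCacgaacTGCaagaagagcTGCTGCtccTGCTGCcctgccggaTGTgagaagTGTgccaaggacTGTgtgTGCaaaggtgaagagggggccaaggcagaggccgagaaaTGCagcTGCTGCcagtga
Mt4: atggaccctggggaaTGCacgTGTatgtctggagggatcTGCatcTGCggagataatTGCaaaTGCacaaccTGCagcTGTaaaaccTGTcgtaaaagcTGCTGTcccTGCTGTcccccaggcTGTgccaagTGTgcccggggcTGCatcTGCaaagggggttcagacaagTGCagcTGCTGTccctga
Each of the 4 sequences had 20 such codons, in 61 codons before the stop for Mt1 and Mt2, 68 for Mt3 and 62 for Mt4. Mt1 and Mt2 were the most alike, with 79.6% of aligned bases identical, and Mt3 and Mt4 the least, with 63.3%. The longest identical stretch shared by Mt1 and Mt2 was 20 bases, and the longest in any pair was 27 bases, between Mt1 and Mt3. How the authors counted fragments that match more than 1 gene is not given in the sources used here.

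All 4 metallothionein genes lay on the plus strand of chromosome 8 (GRCm38, as listed in the files) within 43.1 kb, in the order Mt4 (ENSMUSG00000031757, chr8:94137204-94139031), Mt3 (ENSMUSG00000031760, chr8:94152607-94154148), Mt2 (ENSMUSG00000031762, chr8:94172618-94173567) and Mt1 (ENSMUSG00000031765, chr8:94179089-94180325). The gaps were 13.6 kb between Mt4 and Mt3, 18.5 kb between Mt3 and Mt2 and 5.52 kb between Mt2 and Mt1. In the annotation each of them has 3 exons. Slc30a1 (ENSMUSG00000037434, chr1:191906767-191913247, plus strand) has 2 exons and Slc39a14 (ENSMUSG00000022094, chr14:70303469-70351425, minus strand) has 10 in the transcript whose coding length the files list. None of the 6 genes overlapped another listed feature.

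Promoters were matched for 5 of the 6 genes in RefSeq (GRCm38.p6), all but Slc39a14. The window searched ran from 250 bases before to 50 bases after the RefSeq start of the gene. Up to 150 bases before it are printed, 5′ to 3′, because zinc is known to act on Mt1, Mt2 and Slc30a1 through their promoters. Those of Mt3 and Mt4 are shown beside them. The last bases before the RefSeq start are left out for Mt1, Mt4 and Slc30a1, where GENCODE or the files place the start earlier. For Mt2, GENCODE places the start later, at base 94172664 against 94172618 in RefSeq, so the bases searched depend on the start used. Capitals mark the letters TGCACNC or TGCGCNC, the core of the metal response element, on either strand.
Mt1, chr8:94178939-94179081, plus strand: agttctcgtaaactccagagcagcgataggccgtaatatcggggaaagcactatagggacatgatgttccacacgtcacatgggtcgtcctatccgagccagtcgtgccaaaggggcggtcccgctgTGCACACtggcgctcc
Mt2, chr8:94172468-94172617, plus strand: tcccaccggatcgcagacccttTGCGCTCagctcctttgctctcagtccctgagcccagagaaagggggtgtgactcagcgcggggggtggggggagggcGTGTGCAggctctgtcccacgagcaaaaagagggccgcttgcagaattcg
Mt3, chr8:94152457-94152606, plus strand: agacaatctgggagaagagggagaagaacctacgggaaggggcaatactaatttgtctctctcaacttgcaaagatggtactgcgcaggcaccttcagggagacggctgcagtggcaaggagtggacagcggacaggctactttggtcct
Mt4, chr8:94137054-94137196, plus strand: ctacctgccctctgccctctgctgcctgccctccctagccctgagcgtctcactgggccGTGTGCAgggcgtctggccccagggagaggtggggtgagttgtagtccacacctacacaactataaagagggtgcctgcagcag
Slc30a1, chr1:191906631-191906766, plus strand: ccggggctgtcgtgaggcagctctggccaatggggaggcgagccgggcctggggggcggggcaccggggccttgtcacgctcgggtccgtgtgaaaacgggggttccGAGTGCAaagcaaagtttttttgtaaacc
Over the whole window, which reaches beyond the printed bases, Mt2 had 4 matches, Mt1 had 3, Slc30a1 had 2, and Mt3 and Mt4 had 1 each. The printed bases hold 2 of those of Mt2, 1 each of those of Mt1, Mt4 and Slc30a1, and 0 of Mt3. Of 32851 promoters of the same length, 25.7% had at least 1 match, 7.11% at least 2, 1.97% at least 3 and 0.517% at least 4. Where a gene had several promoters, the highest count was taken. Of 9 zinc exporter genes matched, Slc30a1 among them, 6 had at least 1 match and 4 at least 2. Slc30a4 and Slc30a10 had 3 each, as Mt1 did. Of 11 zinc importer genes matched, 5 had at least 1 match and 0 at least 2. The core of the antioxidant response element, TGACNNNGC on either strand, was found once in Mt2 and once in Slc30a1 and in 12.4% of all promoters. A match is a run of letters and not a measured binding site.

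By FPKM, Mt1 and Mt2 led the family in telogen and Mt4 led it in anagen. The order was the same at both ages, with Mt1, Mt2, Mt4, Mt3, Slc30a1 and Slc39a14 from high to low in telogen and Mt4, Mt2, Mt1, Slc30a1, Slc39a14 and Mt3 in anagen. Between neighbours in these orders, the counting intervals overlapped for Mt3 (12.8 to 19.5 FPKM) and Slc30a1 (11.7 to 13.2 FPKM) in OTD and in no other pair. In YAD, Mt4 was the 28th and Mt2 the 47th highest of all listed genes by FPKM. In approximate fragments, which grow with transcript length, Mt2 stood above Mt4 in YAD, with about 13767 and 11466.

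**Figure D1:**
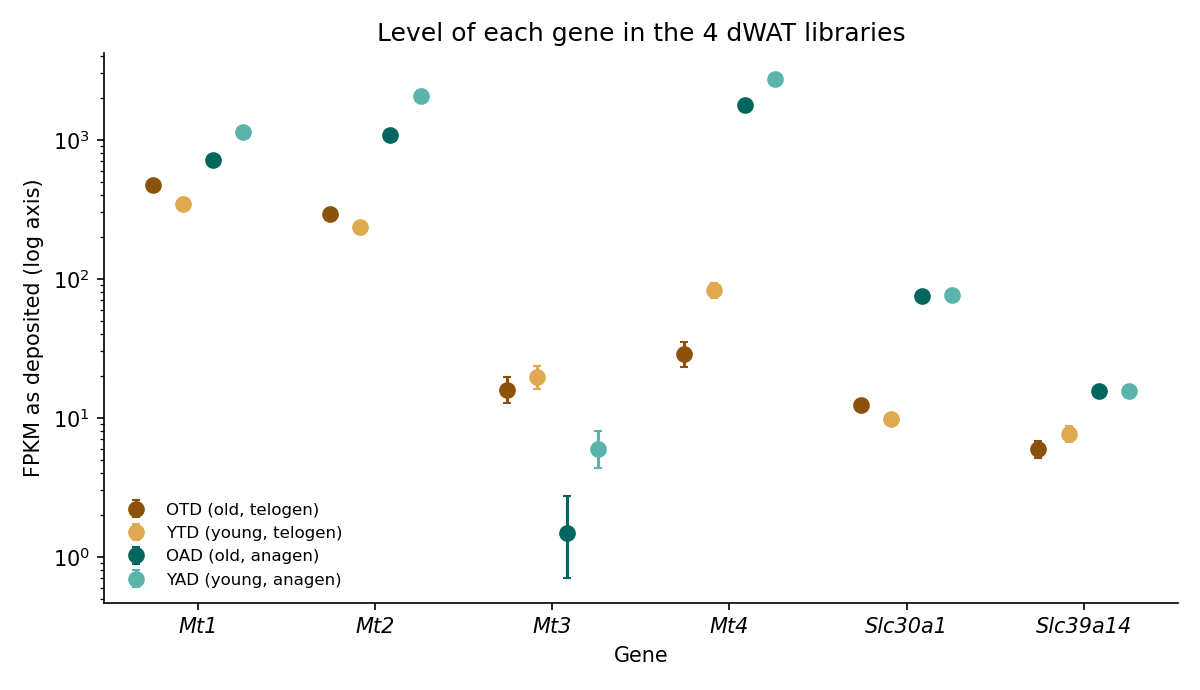
FPKM as deposited (log axis) of the 6 genes in OTD, YTD, OAD and YAD, 1 point per library, with 95% Poisson intervals of the approximate fragment number as bars. Mt1, Mt2, Mt4, Slc30a1 and Slc39a14 had both anagen points above both telogen points, and Mt3 had both below them.

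Mt1 stood at 470 FPKM in OTD and 344 in YTD, against 714 in OAD and 1133 in YAD. Both anagen libraries were above both telogen libraries, and YAD was highest. Mt2, the gene that neighbours it, reached 291 FPKM in OTD and 234 in YTD, against 1080 in OAD and 2049 in YAD, in the same order of libraries but over a wider span. The highest library was 3.29 times the lowest for Mt1 and 8.75 times for Mt2.

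Mt4 stood at 28.8 FPKM in OTD and 82.98 in YTD, against 1787 in OAD and 2732 in YAD. It had the widest span of the 6 genes, with the highest library 95.0 times the lowest. Mt3 reached 15.9 FPKM in OTD and 19.5 in YTD, against 1.48 in OAD and 5.99 in YAD. It was the only one of the 6 that was lower in both anagen libraries than in both telogen libraries, and its OAD value rested on about 10 fragments.

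Slc30a1 stood at 12.4 FPKM in OTD and 9.84 in YTD, against 74.8 in OAD and 76.5 in YAD. The libraries fell into a low telogen pair and a high anagen pair. Slc39a14 reached 5.95 FPKM in OTD and 7.68 in YTD, against 15.6 in OAD and 15.7 in YAD, with the same split over a narrower span. Mtf1, the gene of the zinc sensor, stayed between 3.08 FPKM in OTD and 3.84 FPKM in OAD and was not counted as changed in any comparison.

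Summed over Mt1 to Mt4, the family reached 805 FPKM in OTD and 681 in YTD, against 3583 in OAD and 5920 in YAD. This was 0.136%, 0.0989%, 0.539% and 0.998% of the FPKM outside mitochondrially encoded genes in OTD, YTD, OAD and YAD. The make-up of the sum differed between phases. Mt4 was 3.57% of it in OTD and 12.2% in YTD, against 49.9% in OAD and 46.2% in YAD, while the share of Mt2 stayed between 30.2% and 36.1%. The ratio of Mt1 to Mt2 was 1.62 in OTD and 1.47 in YTD but 0.661 in OAD and 0.553 in YAD, so the more abundant of the pair was Mt1 in telogen and Mt2 in anagen. A ratio within a library does not depend on the scaling between libraries.

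**Figure D2:**
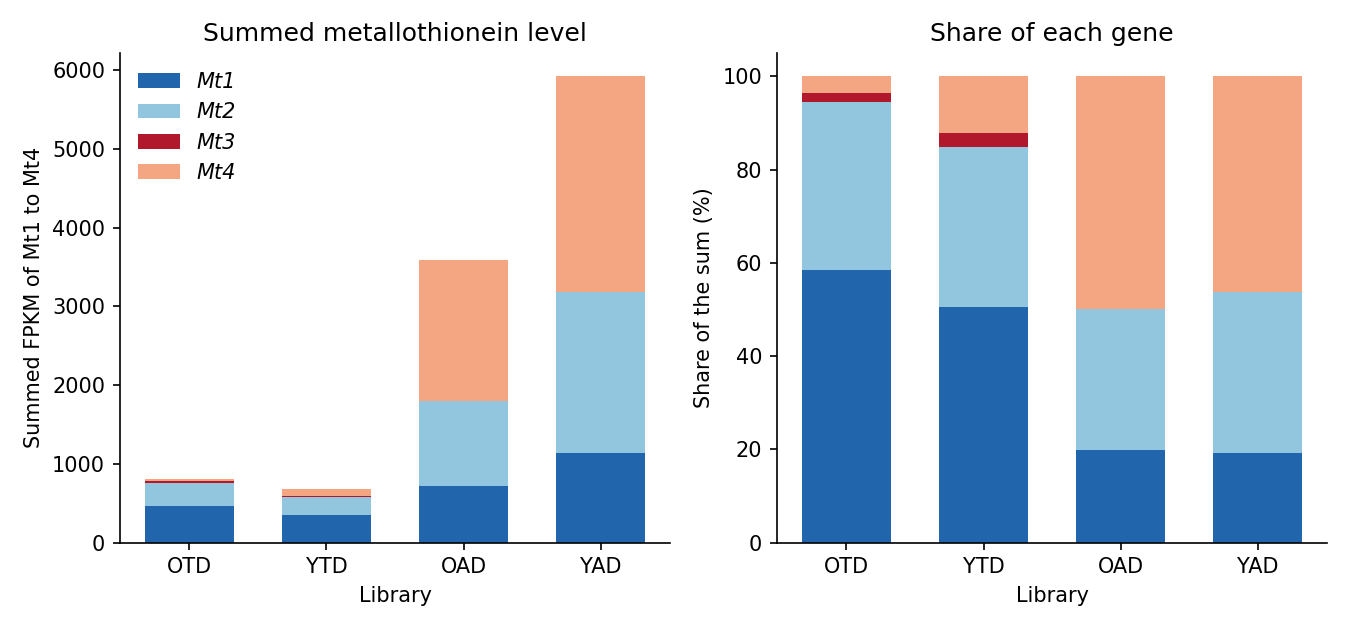
Summed FPKM of Mt1 to Mt4 in each library (left) and the share of each gene in that sum in percent (right), with 1 bar per library and no error, as there are no replicates. The sum was 681 and 805 FPKM in telogen and 3583 and 5920 FPKM in anagen, where Mt4 was 46.2% to 49.9% of it.

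The comparison of OTD with YTD asks what age changes in dWAT around resting HFs. Mt4 was the only one of the 6 genes counted as changed, against 2.71% of all genes, with 28.8 FPKM in OTD and 82.98 in YTD and a change of -1.50. Its level in YTD was 2.88 times that in OTD, and the interval of the log2 ratio ran from -1.89 to -1.19. The hair shaft markers, keratin genes and regulators of the growing shaft, moved with it. All 12 were above 0 in each library and lower in OTD, 8 of them by at least 1, and they summed to 35.2 FPKM in OTD and 105 in YTD, against 11462 in OAD and 11917 in YAD. Their part in the Mt4 values was not tested.

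The other 5 genes differed by less than 1 between OTD and YTD. The changes were 0.45 for Mt1, 0.31 for Mt2 and 0.31 for Slc30a1, higher in OTD, and -0.28 for Mt3 and -0.32 for Slc39a14, lower in OTD. For Mt3 the interval of the log2 ratio, from -0.72 to 0.12, included 0, so no difference was detectable at this depth. The epidermal keratinocyte markers, from another tissue in which Mt4 is known, summed to 65.3 FPKM in OTD and 93.4 in YTD, with 7 of 10 lower in OTD. Krt1 and Flg2 of this list were listed at 0 in YTD and none in OTD. In anagen they summed to 1565 FPKM in OAD and 1066 in YAD, and their part in the Mt4 values was not tested.

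In anagen, where OAD was compared with YAD, all 6 genes had lower values in old mice, but those of Slc30a1 and Slc39a14 were nearly level. Mt3 alone was counted as changed, and 0.908% of all genes were, 0.559% higher and 0.349% lower in OAD. That split of 128 higher and 80 lower genes turned round in 3 of 4 rescalings, to 104 and 175 in TPM, 132 and 183 in TPM without mitochondrially encoded genes, and 155 and 201 when muscle, hair shaft, keratin and keratin-associated protein genes were left out too. Mt3 had 1.48 FPKM in OAD and 5.99 in YAD, on about 10 and 44 fragments, a change of -1.50. Its YAD value was 4.05 times that in OAD, with an interval of the log2 ratio from -3.23 to -1.06. Mt2 had a change of -0.92, from 1080 FPKM in OAD and 2049 in YAD, just short of 1. After rescaling it ran from -1.15 to -0.91 and passed 1 in 3 of 4 scalings, or from -0.99 to -0.91 relative to the shift of all genes that these scalings brought. This is the contrast for which Mt2 was picked.

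Mt1 and Mt4 were lower in OAD by 0.66 and 0.61 on the log2 scale, so that YAD was 1.59 times OAD for Mt1 and 1.53 times for Mt4. Slc30a1 changed by -0.03, with an interval of the log2 ratio from -0.08 to 0.01. The change of Slc39a14 was -0.01 as deposited and between -0.23 and 0.00 over the rescalings, which included a value just above 0, and the interval of its log2 ratio ran from -0.17 to 0.15. The 4 metallothionein genes thus had lower values in OAD, while the intervals of both transporter genes included 0. Fibroblast markers moved with Mt3, as all 8 were lower in OAD, 3 of them by at least 1, and they summed to 207 FPKM in OAD and 418 in YAD. All 8 melanocyte markers were also lower in OAD, 1 by at least 1, with sums of 465 and 760 FPKM. Of the hair shaft markers, 10 of 12 were lower in OAD, none by at least 1, with a median of -0.16. All 9 macrophage markers were lower in OAD, none by at least 1, with a median of -0.22. The other lists went the other way. In OAD, 10 of 10 adipocyte, 7 of 7 endothelium and 9 of 10 epidermal keratinocyte markers were higher. So were 8 of 10 skeletal muscle and 6 of 7 neutrophil markers. The part of these cell types in the metallothionein values was not tested.

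**Figure D3:**
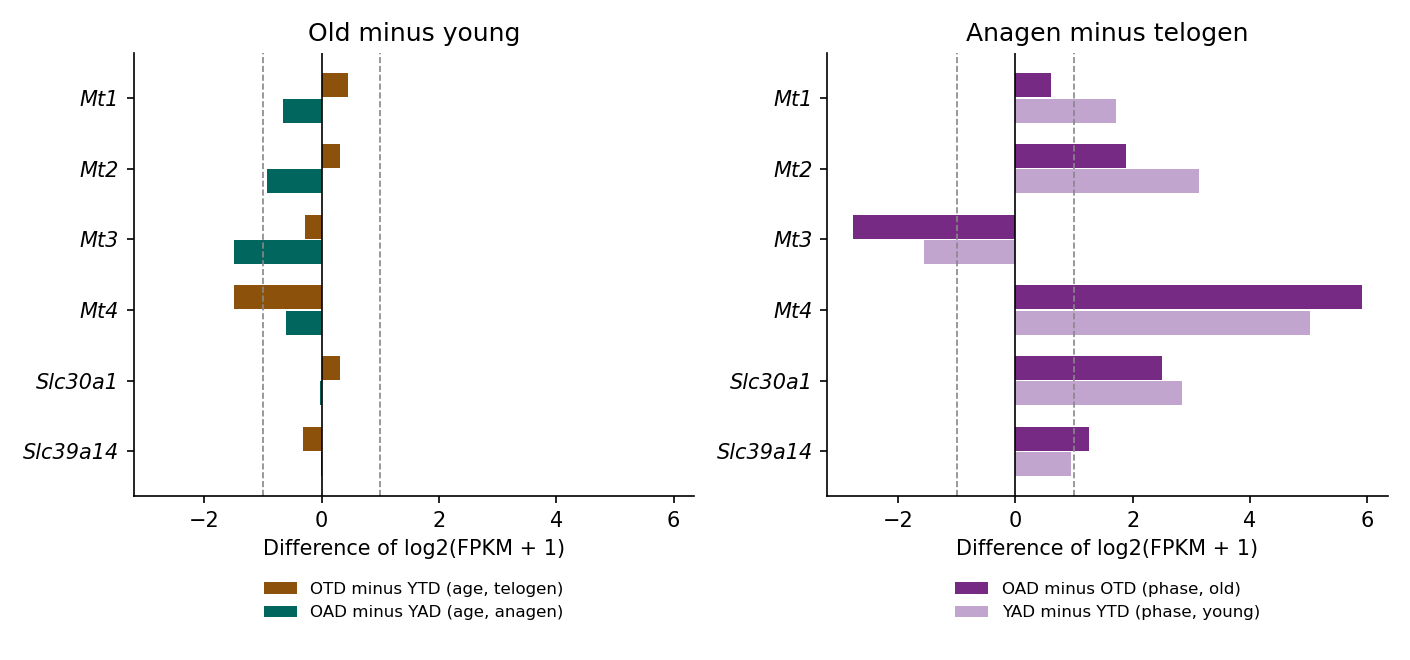
Differences of log2(FPKM + 1) for the 6 genes between old and young mice (left) and between anagen and telogen (right), 1 bar per comparison of 2 libraries, with dashed lines at the threshold of 1 in size. Mt4 in telogen and Mt3 in anagen passed it between ages, and the bars between phases reached 5.91 for Mt4 in old mice.

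The comparisons of anagen with telogen, within each age, ask what differs in the growth phase. In old mice, OAD against OTD, 5 of the 6 genes were counted as changed, against 24.5% of all genes. The changes were 5.91 for Mt4, 2.50 for Slc30a1, 1.89 for Mt2 and 1.25 for Slc39a14, all higher in OAD, and -2.77 for Mt3. Mt1 was higher by 0.60, or by 1.22 after rescaling to TPM and 0.92 relative to the median shift that TPM brought. In young mice, YAD against YTD, again 5 of the 6 were counted, against 25.2% of all genes. Mt4 changed by 5.02, Mt2 by 3.12, Slc30a1 by 2.84 and Mt1 by 1.72, all higher in YAD, and Mt3 by -1.56. Slc39a14 was higher by 0.95, short of 1 as deposited and past it in 3 of 4 rescalings. The value of Mt3 in young mice fell short of 1 in TPM, at -0.79, or -1.23 once the shift was taken off.

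As levels, Mt4 was 62.1 times as high in OAD as in OTD and 32.9 times as high in YAD as in YTD. Slc30a1 was 6.02 times as high in anagen in old and 7.77 times in young mice, and Mt2 3.72 and 8.75 times. These ages did not share libraries in the phase comparisons. Mt3 in telogen was 10.8 times its anagen level in old and 3.26 times in young mice. The hair shaft markers were all 12 higher in anagen at both ages by at least 1, with medians of 7.99 in old and 6.57 in young mice, in the same direction as Mt4. The fibroblast markers were all 8 lower in anagen at both ages, as was Mt3, with sums of 1557 FPKM in OTD and 1122 in YTD, against 207 in OAD and 418 in YAD. Skeletal muscle, adipocyte, macrophage and endothelium markers were all lower in anagen too. Of the neutrophil markers, 3 were higher and 4 lower in old mice, and 3 higher and 3 lower in young mice. The part of this shift in cell make-up in the values of the 6 genes was not tested.

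The other zinc transporter genes were then read from the complete families. None of the 10 exporter (ZnT) genes and none of the 14 importer (ZIP) genes was counted as changed between ages in telogen or in anagen. Over all genes, 2.71% were in telogen and 0.908% in anagen. At such shares, a count of 0 in lists this short says little. The median changes were -0.06 for exporters in both phases, and -0.10 in telogen and -0.02 in anagen for importers, beside -0.03 and 0 over all genes above 0. Slc30a8 and Slc30a10 among the exporters and Slc39a5 among the importers were listed at 0 in all libraries. Between phases, Slc30a1 stood at the top of the exporters, and Slc30a3, the transporter of synaptic vesicles, was the only other that was higher in OAD than OTD by at least 1, from 0.0654 to 1.75 FPKM, a change of 1.37. In young mice, Slc30a3 changed by 0.72 and the mitochondrial and nuclear protein gene Slc30a9 by -1.001, from 31.5 FPKM in YTD to 15.3 in YAD, at the threshold. The exporter with the highest FPKM in telogen was Slc30a9, with 25.7 FPKM in OTD and 31.5 in YTD, and in anagen it was Slc30a1.

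Several importers were counted as higher in anagen. In old mice 6 of 14 were counted, all higher in OAD, with Slc39a8 at 4.16, Slc39a6 at 3.39, Slc39a10 at 3.22, Slc39a11 at 1.63, Slc39a2 at 1.55 and Slc39a14 at 1.25. Over all genes, 12.5% were higher in OAD by at least 1, 2854 genes as deposited and 4923 in TPM. In young mice 4 of 14 were counted, with Slc39a10 at 3.68, Slc39a6 at 3.50, Slc39a8 at 3.41 and Slc39a2 at 2.04, beside 12.3% of all genes that were higher in YAD, 2829 as deposited and 5891 in TPM. In TPM the importers counted came to 7 in old and 8 in young mice, and the exporters to 4 at each age. Slc39a8, which carries zinc and manganese across the plasma membrane as Slc39a14 does, had 2.01 FPKM in OTD and 3.07 in YTD, against 52.9 in OAD and 42.3 in YAD. Slc39a10 had 4.98 FPKM in OTD and 5.40 in YTD, against 54.5 in OAD and 81.2 in YAD, and Slc39a6, the gene most related to it, had 4.16, 3.17, 53.0 and 46.4 FPKM in OTD, YTD, OAD and YAD. In telogen these 3 genes were all below Slc39a1 and Slc39a7, and in anagen all 3 were above Slc39a1. Slc39a1 had between 33.0 and 45.0 FPKM and Slc39a7, which releases zinc from the endoplasmic reticulum and Golgi, between 35.5 and 54.4 FPKM over the libraries. Median changes were 0.60 in old and 0.64 in young mice for importers and 0.45 and 0.33 for exporters, beside 0.01 and 0.02 over all genes.

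**Figure D4:**
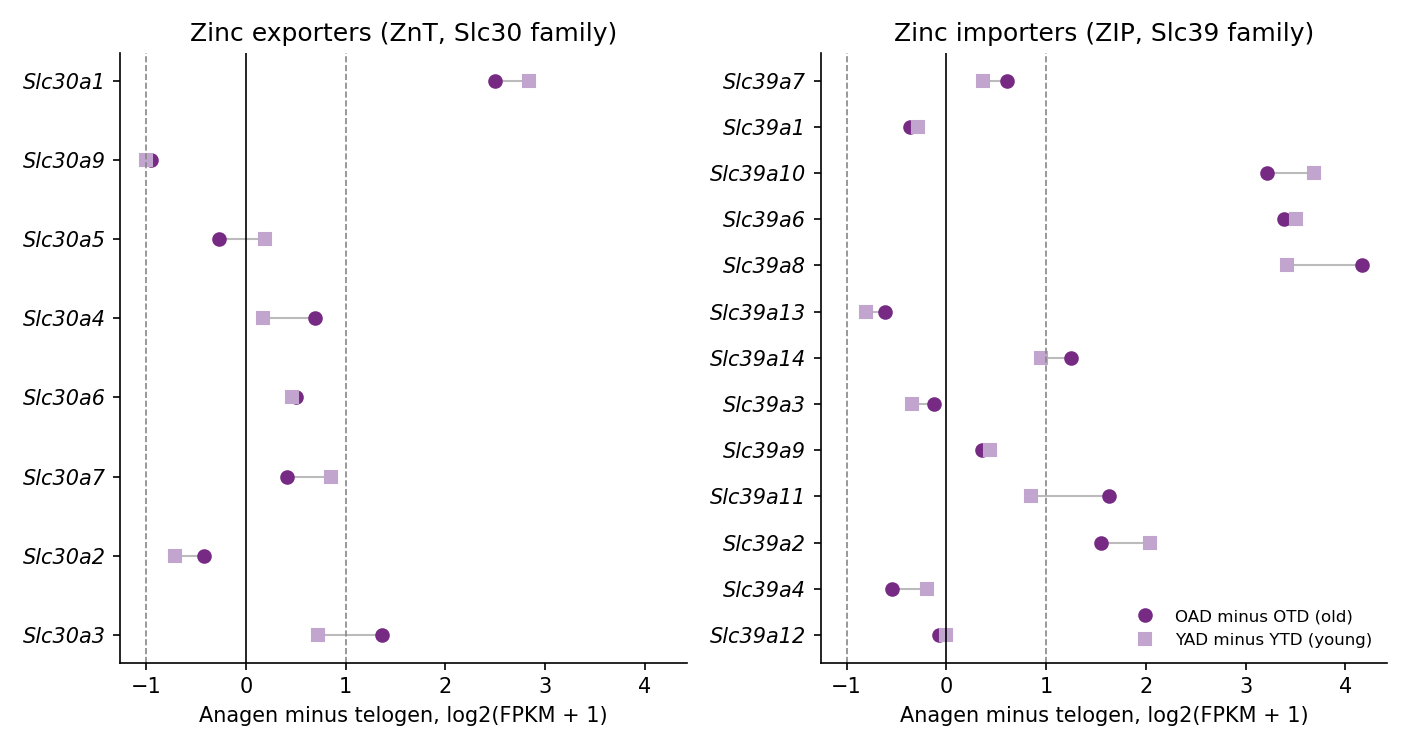
Anagen minus telogen difference of log2(FPKM + 1) for the exporter (left) and importer (right) genes with a value above 0, in order of mean FPKM, with circles for old and squares for young mice and dashed lines at 1 in size. Slc30a1 stands apart among the exporters at 2.50 and 2.84, and Slc39a6, Slc39a8 and Slc39a10 among the importers at 3.22 to 4.16.

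Genes of the signals and stresses known to act on metallothioneins were read beside them. The part of these signals and stresses in the metallothionein values was not tested. In telogen, where Mt1 and Mt2 were higher in OTD by 0.45 and 0.31, 3 of 10 glucocorticoid response genes were counted as higher in OTD: Dusp1 at 1.31, Errfi1 at 1.16 and Pdk4 at 1.06. Values were higher in OTD for 7 of these 10 genes, with a list median of 0.16. The 3 lower ones were Zbtb16 (-0.76), Fkbp5 (-0.32) and Tsc22d3 (-0.03). Of 13 genes of interleukin 6, STAT3 and the acute phase, 4 were counted as higher in OTD, namely Il6 at 2.55, Lcn2 at 1.57, Socs3 at 1.46 and Timp1 at 1.18, where 1.25% of all genes were. Lower in OTD were 3 of the 13, Saa1 (-0.74), Hp (-0.60) and Saa2 (-0.19), and the list median was 0.61. After rescaling to TPM without mitochondrially encoded genes, the split over all genes went from 287 higher and 333 lower in OTD to 656 higher and 270 lower. Il6 had 6.19 FPKM in OTD and 0.225 in YTD. No gene of the copper handling list (13 genes) or of the oxidative and metal stress list (8 genes) was counted between ages in either phase. The share over all genes was 2.71% in telogen and 0.908% in anagen.

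In anagen, where Mt1 and Mt2 were lower in old mice, no glucocorticoid response gene was counted as changed between OAD and YAD. Saa3 at 1.34 was the only gene of the interleukin 6 list, beside 0.908% of all genes. Between phases the glucocorticoid list went the opposite way to Mt1 and Mt2, as 4 of 10 genes were counted as lower in OAD than OTD (Pdk4, Dusp1, Klf9 and Tsc22d3, from -2.67 to -2.15) and 5 of 10 as lower in YAD than YTD, those 4 and Zbtb16. Over all genes, 12.0% were lower in OAD and 12.8% lower in YAD by at least 1. In the interleukin 6 list, 8 of 13 genes were counted as lower in OAD than OTD, led by Il6 at -2.78, and 3 of 13 as lower in YAD than YTD, Il6st at -1.73, Stat3 at -1.21 and Timp1 at -1.07. None of either list was counted as higher in anagen. Whether these signals had a part in the Mt1 and Mt2 values was not tested. In TPM, 4 genes of the glucocorticoid list were counted at each age, and those of the interleukin 6 list went from 8 to 5 in old mice and from 3 to 0 in young mice, where its median went from -0.44 to 0.14.

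Copper, which metallothioneins also bind, is taken up through Slc31a1 and moved out by Atp7a. Slc31a1 was higher in anagen by 1.70 in old and 1.55 in young mice, and Atp7a by 1.68 and 1.502. Steap2, a reductase of iron and copper, was higher by 1.41 and 1.69, and Atox1, a copper chaperone, by 1.31 in old mice and by 0.93, short of the threshold, in young mice. Steap3 was lower by 1.28 and 1.45. Of the 8 oxidative and metal stress genes, 3 were counted as higher in anagen at both ages, with Gclc at 1.74 and 2.11, Gss at 1.75 and 1.33 and Txnrd1 at 1.52 and 1.10 in old and young mice. Gclm, at 0.64 and 0.74, and Gsr, at 0.51 and 0.28, which also serve glutathione, were not counted. Nqo1 was counted as lower, at -2.14 and -1.90. The shares over all genes were 12.5% higher and 12.0% lower in OAD, and 12.3% higher and 12.8% lower in YAD. In TPM the genes counted in this list went from 4 to 8 in old and from 4 to 7 in young mice, and those of the copper list from 5 to 6 and from 4 to 7. All genes counted went from 5613 to 6425 in old and from 5767 to 7165 in young mice. Those higher in anagen went from 2854 to 4923 and from 2829 to 5891.

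Likeness of pattern was read as the smallest Euclidean distance between values of log2(FPKM + 1), each less its mean over the 4 libraries, among 13142 genes with a mean FPKM of at least 1. With 4 libraries, 1 per group, it is a description. The 5 genes nearest to Mt2 were Aldh1a3 at a distance of 0.114, Rnaset2b, Mc1r, Tcf19 and Msx1 at 0.333. Aldh1a3, a retinaldehyde dehydrogenase gene, had 2.14 FPKM in OTD and 1.40 in YTD, against 10.7 in OAD and 22.4 in YAD. Mc1r had 0.0768 FPKM in OTD and 0.0811 in YTD, against 2.86 in OAD and 6.10 in YAD. Its telogen values lay far below the pseudocount of 1, which makes its change come out smaller. Mt1 was only at rank 1443 for Mt2, and Slc30a1 was at rank 142, so by this measure the exporter gene lay nearer to Mt2 than its neighbour Mt1 did. After rescaling to TPM without mitochondrially encoded genes, 3 of the 5 nearest genes were shared, and Mc1r and Msx1 were not among them. The rank of Mt1 for Mt2 moved under this rescaling as well.

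The genes nearest to Mt1 were H2afy2, Ccdc137 and Rps4l. For Mt3 they were Col3a1, Mfap4 and Col1a2, 2 fibrillar collagen genes and a microfibril gene, and Col3a1 and Col1a2 were themselves on the fibroblast marker list. Mfap4 had 19.4 FPKM in OTD and 19.6 in YTD, against 1.41 in OAD and 5.58 in YAD, close to Mt3 also in level. For Mt4 they were Gm10100, Gm10142 and Gm19402, 3 genes on chromosome 10 that each had 2 keratin-associated protein genes within 200 kb. For Slc30a1 the nearest were Tubb2a, Mcoln3 and Ralgps2, and for Slc39a14 they were Exosc3, Setd1a and Gspt1.

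Genes listed within 200 kb of the metallothionein cluster were read beside it. None of Gnao1, Nudt21, Ogfod1, Bbs2, Nup93 and Slc12a3 was counted as changed between ages, beside 2.71% of all genes in telogen and 0.908% in anagen. Between phases, Nup93, the nearest at 34.3 kb, was higher in anagen by 1.08 in old and 1.23 in young mice. Gnao1 was lower by 1.63 at both ages. The neighbours Mt4 and Mt3, with changes of 5.91 and 5.02 against -2.77 and -1.56 in old and young mice, thus lay side by side with a gap of 13.6 kb.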

How the data were processed

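RNA of microdissected dWAT was measured in 4 libraries, 1 per group, by RNA sequencing. The submitters' processing notes name bcl2fastq, TopHat2 and GRCm38, and the counting tool, annotation and scaling between libraries are not given in the sources used here. In each file deposited by the authors, FPKM of 22913 genes stand beside positions and a length that is a coding length, as 97.0% are multiples of 3. Groups came from the sample titles. Identifiers were matched to symbols for 21750 of 22166 Ensembl genes.

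FPKM were used as deposited with a pseudocount of 1. With 1 library per group no test was made. Depth came from 3894 genes with 1 annotated transcript of 400 to 5000 bases (GENCODE vM21), in which low FPKM times transcript length gathered in steps of 1 fragment. Taking 210 bases off each transcript gave the sharpest steps summed over the libraries. Within 10% of the step then lay 42.3% (OTD) to 67.6% (YAD) of the values around it, against 46.1% (OTD) to 62.6% (YAD) with none taken off, where OTD was the sharper, and 22.0% to 24.8% with the listed length, so FPKM was read as per transcript length. Fragment numbers of a gene are therefore rough and assume its transcript with the listed coding length. The steps were tested on simulated libraries.

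Genes named were the 6 members, list genes counted as changed, the zinc transporter genes of highest FPKM and the genes nearest to each member in pattern. Some genes are not reported here. Members and lists were chosen with earlier results of these data known. The lists were zinc exporters, zinc importers, Mtf1, copper handling, oxidative and metal stress, glucocorticoid response (10 of 11 genes found), and interleukin 6, STAT3 and acute phase, beside markers of cell types. Alternatives were other pseudocounts, a filter at an FPKM of 1, 4 rescalings, other thresholds and other orders of the members. Python 3.11.15, numpy 2.4.6, pandas 2.3.3, scipy 1.17.1 and matplotlib 3.10.9 were used.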

Additional observations from a re-analysis of the deposited data

Results flagged for a closer look

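Mt1 and Mt2 had changes between ages of opposite sign in the 2 phases, in all 4 libraries concerned. Mt1 was higher in OTD than YTD by 0.45 on the log2 scale and had a change of -0.66 between OAD and YAD. Mt2 was higher in OTD than YTD by 0.31 and had a change of -0.92 between OAD and YAD, the contrast for which it was picked. Macrophage markers had medians of opposite sign too, at 0.54 in telogen (8 of 9 higher in OTD) and -0.22 in anagen (9 of 9 lower in OAD). So had fibroblast markers, at 0.35 (6 of 8 higher) and -0.66 (8 of 8 lower). Skeletal muscle markers (-0.67 and 0.41) and epidermal keratinocyte markers (-0.17 and 0.21) went the other way. Medians of adipocyte, endothelium and neutrophil markers were positive in both phases, and those of hair shaft and melanocyte markers negative. The part of these cell types in the Mt1 and Mt2 values was not tested. The difference between the changes of the 2 phases was -1.11 for Mt1 and -1.23 for Mt2. It was not tested, since each group had 1 library. Both signs held for both genes under every alternative run. Slc30a1 had 0.31 and -0.03, and the second of these was within counting error.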

How the results depend on the processing

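Over the alternatives run, 23 of 24 changes of the 6 genes kept their sign, the exception being Slc39a14 between ages in anagen (-0.23 to 0.00). In anagen, 2 members were counted as changed between ages, Mt3 and Mt2, under each of the 3 rescalings to TPM (all genes, without mitochondrially encoded genes, and also without muscle, hair shaft, keratin and keratin-associated protein genes), 0 at a threshold of 1.5 and 4 at 0.5. In telogen 0 were at 1.5. TPM shifted the median of all genes by -0.16 between ages in anagen and by 0.30 and 0.44 between phases in old and young mice. Without mitochondrially encoded genes it shifted by 0.13 and -0.12 between ages in telogen and anagen, and with the further genes left out by 0.15 between phases in young mice. Of all genes, 2144 in telogen and 1109 in anagen passed between ages with a pseudocount of 0.1. With 0.01 it was 3445 and 2435, and 9616 in old and 9761 in young mice between phases. Rescaling gave 315 in anagen without mitochondrially encoded genes, and 933 in telogen and 356 in anagen with the further genes left out. A threshold of 1.5 gave 141, 58, 3178 and 3280, and 0.5 gave 3678, 1263, 9866 and 10040, in telogen, anagen, old and young mice. In FPKM times listed length, 4 members in OTD and 3 in YTD stood at another place in the order than by FPKM. On scales chosen after seeing the data, FPKM times transcript length moved 4 in every library, and values per full transcript length moved 2 in OTD. No paired analysis was possible because each group had 1 library. Single libraries limit every comparison, and depth limits Mt3 most.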
